A study of Arabidopsis thaliana with 28 samples.

Results

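The comparison described here concerns transcripts whose change over the first hours after drying differed between roots and shoots of Arabidopsis thaliana. It rests on 8 of the 28 ATH1 arrays of a drought time course, with 2 arrays each of roots at 6 h, roots at 0.25 h, shoots at 6 h and shoots at 0.25 h. The organ difference of a probe set is its root change (6 h over 0.25 h) minus its shoot change on the log2 scale, so that a positive value means that roots rose more, or fell less, than shoots. All plants were Col-0, on Murashige and Skoog medium under 16 h of light a day, and were 16 days old when treated. The treatment started 3 h into the light period. A dry air stream of 15 min took 10% of the fresh weight, and the plants were then kept in closed vessels. The plants of the 0.25 h arrays had therefore also been dried, and no untreated arrays were analysed here. Time after drying and time of day advanced together in both organs and cannot be told apart. Nothing in the labels tells if both arrays of a group stem from different cultures. The p-values therefore reflect the spread of these arrays alone, perhaps technical, and 2 arrays a group limit the precision.

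Plant cells that lose water make osmoprotective proteins such as dehydrins and other late embryogenesis abundant (LEA) proteins, many of which also respond to cold and to the hormone abscisic acid. Leaves fix carbon, store part of it as starch and load sucrose into the phloem, whereas roots take up water and live on the sugar they import. Both organs hold a circadian clock, whose evening genes, such as GIGANTEA, reach their highest level late in the light period.

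In this time course the transcripts of shoots moved more than those of roots between 0.25 h and 6 h, and most organ differences were changes of shoots. Of 18190 probe sets tested with limma across all 28 arrays, 3067 (16.9%) had an organ difference at a Benjamini-Hochberg adjusted p below 0.05, with 1441 positive (7.92%) and 1626 negative (8.94%). That split depends on the scaling of the arrays: with arrays centred on their medians, 1747 were positive and 1338 negative. The root change on its own passed the test for 1880 probe sets (10.3%), 968 of them up (5.32%) and 912 down (5.01%). The shoot change passed for 6080 (33.4%), 3214 up (17.7%) and 2866 down (15.8%). Over all tested probe sets, the SD of the root change was 0.55 and that of the shoot change 0.79 on the log2 scale. The organ difference exceeded 2-fold for 1703 of the 3067 probe sets and 4-fold for 415. The shoot change was the larger of the pair, in absolute size, for 2506 of them (81.7%) and the root change for 561. In 10013 genes represented by 1 probe set, 1554 (15.5%) passed, 709 of them positive (7.08%) and 845 negative (8.44%), beside 951 (9.5%) in roots, up for 4.82% and down for 4.67%, and 3124 (31.2%) in shoots, up for 16.4% and down for 14.8%. Leaving out the second root array of 6 h left 2004 organ calls and 911 in roots, and leaving out the first root array of 0.25 h left 802 in roots.

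**Figure D1:**
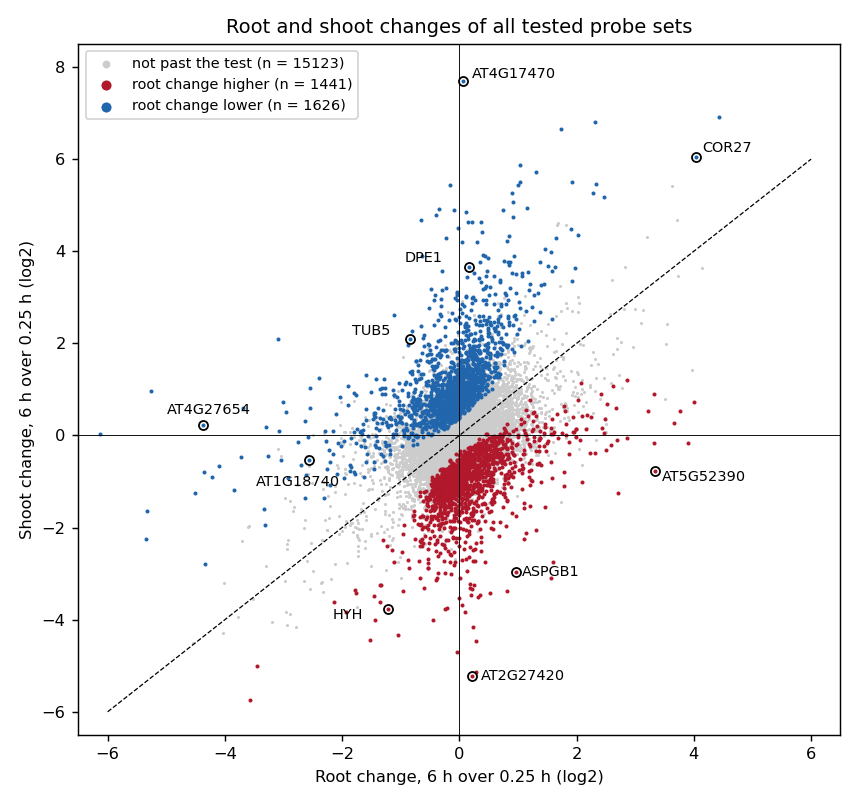
Each point is 1 of 18190 probe sets, with its root change on the x axis and its shoot change on the y axis, both 6 h over 0.25 h on the log2 scale; red and blue points passed the test of the organ difference, and the dashed line marks equal changes. The called points (1441 red, 1626 blue) spread mainly up and down the y axis, and 10 genes are named.

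The arrays of each of the 4 groups resembled each other, with a correlation of log2 signals between the pair of 0.976 to 0.982. The median signal of the 4 root arrays was 44.5 to 46.7 and that of the 4 shoot arrays 36.6 to 39.3. Nuclear photosynthesis genes separated the organs as labelled: the summed signal of the 10 measured was 504 to 671 in roots at 6 h and 471 to 529 in roots at 0.25 h, against 30202 to 32473 in shoots at 6 h and 32438 to 33619 in shoots at 0.25 h. The shoot arrays of 0.5 h and 1 h correlated best with arrays of the other label. The 6 h comparison uses them only for the estimate of the spread. Without these 4 arrays 3785 probe sets passed, among them 3062 of the 3067.

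The called probe sets were sorted by what each organ did on its own. The largest groups were 1161 probe sets (37.9% of those called) that rose in shoots while their root change did not pass the test and 1032 (33.6%) that fell in shoots while their root change did not pass. Their median changes were −0.01 in roots and 1.01 in shoots for the first, and −0.03 in roots and −1.08 in shoots for the second. Roots alone passed for 338 probe sets (11.0%), 171 that rose and 167 that fell. In 21 of the 171 (12.3%) and 27 of the 167 (16.2%), all shoot signals compared lay under the 30th percentile of their array. Over all tested probe sets this share was 7.38%. In such probe sets a shoot change could hardly be measured. Both organs changed the same way for 248 probe sets, with the larger change in shoots for 217 of them. The organs changed in opposite directions for 107 probe sets: 56 rose in roots and fell in shoots, and 51 fell in roots and rose in shoots. For the remaining 181 the difference passed although neither organ did.

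**Figure D2:**
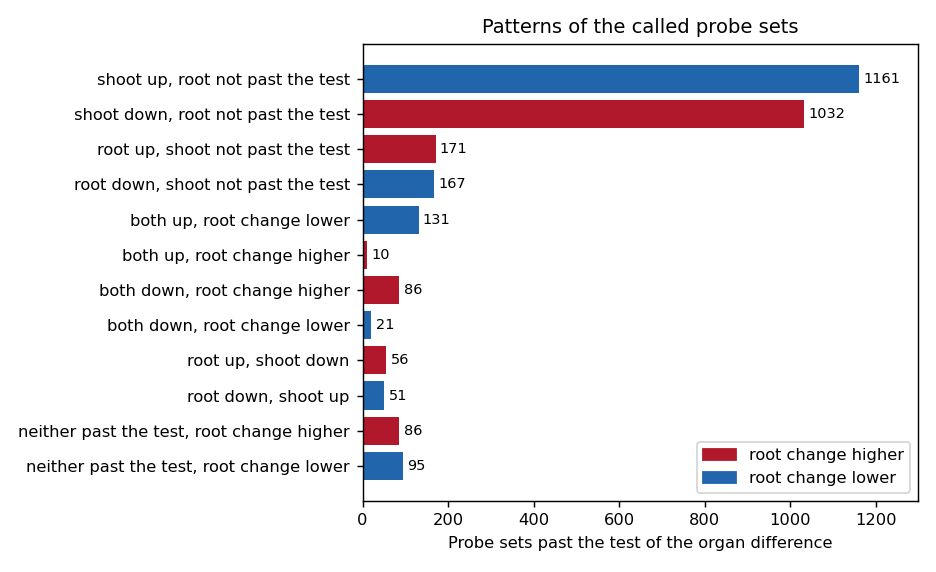
Bars give the number of probe sets in each of 12 patterns among the 3067 with an organ difference, red where the root change was the higher and blue where it was the lower. The patterns in which shoots alone passed hold 1161 and 1032 probe sets, and no other pattern exceeds 171.

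Most of the largest negative organ differences belonged to genes that rose in shoots. AT4G17470, of a thioesterase family, had signals of 0.931 and 1.22 in roots at 6 h and 0.951 and 0.953 in roots at 0.25 h, against 914 and 797 in shoots at 6 h and 2.26 and 2.06 in shoots at 0.25 h. Shoots at 6 h stood apart from the other 3 groups, whose arrays all lay under the 30th percentile of their array (11.3 to 14.8 over the 8 arrays). The organ difference was −7.65 ± 0.63 (SE, adjusted p = 2.36e-07), and shoots rose 209-fold. Starting from the average of the 0.25 h and 24 h arrays instead, it was −4.70. AT1G07050, whose protein carries a CCT motif as CONSTANS does, had 0.695 and 2.42 in roots at 6 h and 1.48 and 3.54 in roots at 0.25 h, against 339 and 366 in shoots at 6 h and 10.7 and 8.98 in shoots at 0.25 h (−5.27 ± 0.64, adjusted p = 1.62e-05). AT3G62550, of the universal stress protein family, had 9.03 and 5.94 in roots at 6 h and 8.30 and 12.9 in roots at 0.25 h, against 2390 and 2708 in shoots at 6 h and 82.7 and 99.0 in shoots at 0.25 h (−5.19 ± 0.57, adjusted p = 5.10e-06). In both genes the signal of roots was low at either time and that of shoots rose, 30.1-fold for AT1G07050 and 27.5-fold for AT3G62550. Signals this low rest on the pseudocount of 1.93 added before the logarithm, which understates the change of dim genes. Of the 3067 called probe sets, 138 (4.50%) had all 4 root arrays under the 30th percentile of their array, where 8.30% of all tested had.

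Other genes of this pattern had a measurable root signal that shoots approached or passed at 6 h. AT2G47890, a B-box zinc finger protein of the CONSTANS-like family, had 264 and 213 in roots at 6 h and 203 and 234 in roots at 0.25 h, against 186 and 212 in shoots at 6 h and 5.13 and 4.82 in shoots at 0.25 h. The difference of −4.74 ± 0.71 (adjusted p = 1.33e-04) thus came from shoots, which were far below roots at 0.25 h and level with them at 6 h. AT4G33985 had 50.1 and 57.1 in roots at 6 h and 76.4 and 93.3 in roots at 0.25 h, against 46.2 and 39.5 in shoots at 6 h and 1.58 and 0.600 in shoots at 0.25 h (−4.54 ± 0.34, adjusted p = 6.59e-08, and −2.50 with the larger pseudocount of 13.4). AT2G15880, a protein with leucine-rich repeats and an extensin domain, had 42.2 and 39.0 in roots at 6 h and 42.8 and 40.0 in roots at 0.25 h, against 156 and 169 in shoots at 6 h and 9.11 and 2.85 in shoots at 0.25 h (−4.53 ± 0.63, adjusted p = 6.61e-05). AT4G34950, of the major facilitator superfamily of transporters, differed otherwise, since both organs were alike at 0.25 h. It had 23.5 and 27.7 in roots at 6 h and 28.7 and 26.0 in roots at 0.25 h, against 884 and 781 in shoots at 6 h and 23.6 and 28.6 in shoots at 0.25 h (−4.99 ± 0.49, adjusted p = 1.54e-06). AT1G20030, of the thaumatin family, had 29.2 and 28.6 in roots at 6 h and 11.6 and 14.8 in roots at 0.25 h, against 189 and 206 in shoots at 6 h and 0.810 and 2.34 in shoots at 0.25 h (−4.83 ± 0.92, adjusted p = 0.00114, and −3.14 with the larger pseudocount).

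Of 9 measured genes on a list of dehydration- and cold-responsive genes, 5 passed the organ test with a negative difference and none with a positive one. Over all genes 8.44% passed with a negative and 7.08% with a positive difference. In shoots 8 of the 9 rose, where 16.4% of all genes did, and in roots 2 rose (COR27 and AT4G30660), where 4.82% of all genes did. The median organ difference of the list was −2.01, beside −0.01 over all genes. The list was chosen with earlier results of these data known, and COR27 is also on the evening clock list. COR15B, a cold-regulated LEA protein of the chloroplast, had 15.6 and 15.2 in roots at 6 h and 11.6 and 16.1 in roots at 0.25 h, against 785 and 793 in shoots at 6 h and 38.7 and 23.3 in shoots at 0.25 h. The root arrays overlapped between the times and those of shoots did not, and the organ difference was −4.48 ± 0.83 (adjusted p = 9.08e-04). The neighbouring genes AT4G30650 and AT4G30660 encode small membrane proteins of the family that responds to low temperature and salt. AT4G30660 had 329 and 277 in roots at 6 h and 131 and 138 in roots at 0.25 h, against 826 and 801 in shoots at 6 h and 23.2 and 25.9 in shoots at 0.25 h. It rose in both organs, 2.22-fold in roots and 30.8-fold in shoots (−3.79 ± 0.24, adjusted p = 1.10e-08). AT4G30650 had 99.2 and 169 in roots at 6 h and 52.9 and 73.8 in roots at 0.25 h, against 897 and 995 in shoots at 6 h and 21.4 and 16.6 in shoots at 0.25 h (−4.48 ± 0.70, adjusted p = 1.80e-04), and its root change did not pass the test (adjusted p = 0.213). LEA4-5, another LEA protein, had the one positive value of the list, 0.71, which did not pass the test (adjusted p = 0.562). COR15A, LTI30 and COR47, a LEA protein and 2 dehydrins, had −2.92, −1.65 and −1.47, which did not pass (adjusted p = 0.0742, 0.0803 and 0.211). The fifth call, AT1G54410 at −0.98 (adjusted p = 3.72e-05), is named after its value was seen.

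**Figure D3:**
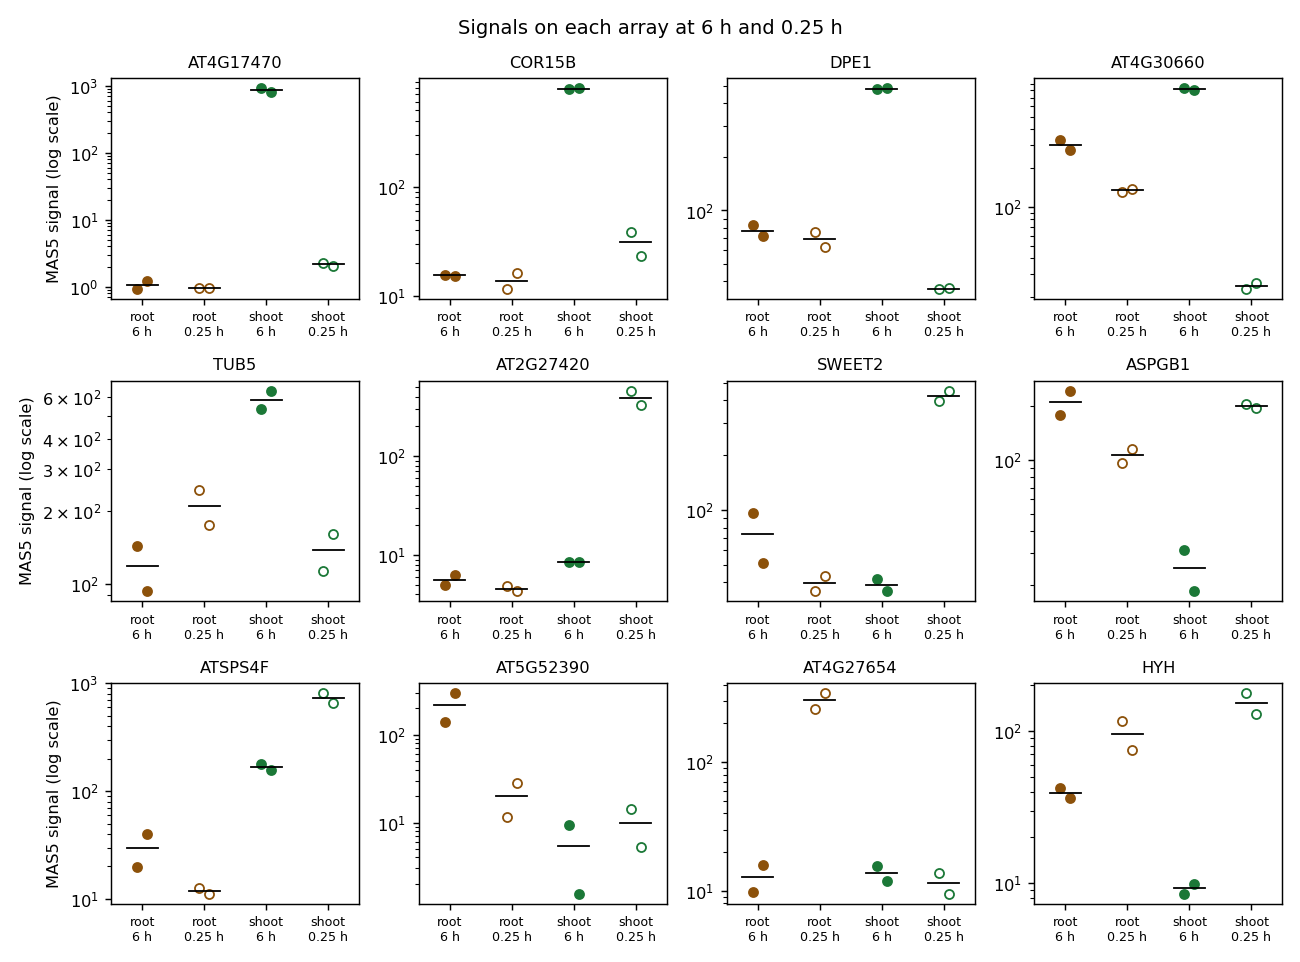
Each panel plots 1 gene's MAS5 signal on a log scale, with a point per array (filled at 6 h, open at 0.25 h), a bar at the mean of 2, roots in brown on the left and shoots in green on the right. The upper row and TUB5 hold genes whose shoot arrays rose at 6 h, such as COR15B (785 and 793 against 38.7 and 23.3), and the rest hold genes that fell in shoots or changed mainly in roots.

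All 3 measured genes of the evening clock list (13 entries) passed the organ test with a negative difference, as did 8.44% of all genes. All 3 rose in shoots (16.4% of all genes) and 2 in roots (4.82%). COR27 and AT4G33980, which encodes the related COR28, are cold-regulated proteins that act within the clock. COR27 had 46.4 and 48.5 in roots at 6 h and 0.818 and 1.32 in roots at 0.25 h, against 162 and 154 in shoots at 6 h and 0.686 and 0.291 in shoots at 0.25 h. Both organs rose without overlap between the times, by 4.04 in roots and 6.05 in shoots on the log2 scale (difference −2.01 ± 0.50, adjusted p = 0.00847). All 4 arrays of 0.25 h lay near the bottom of the scale. With the larger pseudocount the rises were 2.07 in roots and 3.62 in shoots, and with no pseudocount the organ difference of COR27 lost its call (−2.96, adjusted p = 0.110). AT4G33980 had 85.5 and 65.1 in roots at 6 h and 12.4 and 14.3 in roots at 0.25 h, against 193 and 161 in shoots at 6 h and 3.93 and 0.836 in shoots at 0.25 h (−3.14 ± 0.67, adjusted p = 0.00292, and −1.87 with the larger pseudocount). Its root rise did not pass with no pseudocount (2.48, adjusted p = 0.106). GI, which is GIGANTEA, had 331 and 314 in roots at 6 h and 202 and 225 in roots at 0.25 h, against 503 and 530 in shoots at 6 h and 48.3 and 41.6 in shoots at 0.25 h (−2.88 ± 0.39, adjusted p = 4.46e-05). Its root arrays did not overlap between the times, but the root change did not pass the test (adjusted p = 0.194).

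For the COR27 pair the sign of the organ difference turned between 3 h and 6 h, because roots rose earlier. At 3 h COR27 had 8.27 and 12.3 in roots, against 0.576 and 0.217 in shoots, and AT4G33980 had 66.0 and 110 in roots, against 0.698 and 4.44 in shoots. The organ difference from 0.25 h was then 2.07 (adjusted p = 0.0116) for COR27 and 2.49 (adjusted p = 0.0218) for AT4G33980. At 12 h it was −2.77 for COR27 and −2.99 for AT4G33980, and at 24 h −0.21 and −1.42. These values share the arrays of 0.25 h. Set against 3 h instead, a comparison added after the data were seen that called 393 probe sets (2.16%), the root change to 6 h minus the shoot change was −4.07 ± 0.50 for COR27 (adjusted p = 1.62e-04) and −5.63 ± 0.67 for AT4G33980 (adjusted p = 1.52e-04). At 24 h, close to the time of day of the 0.25 h arrays, COR27 was back at 0.872 and 1.03 in roots, against 0.647 and 0.871 in shoots.

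**Figure D4:**
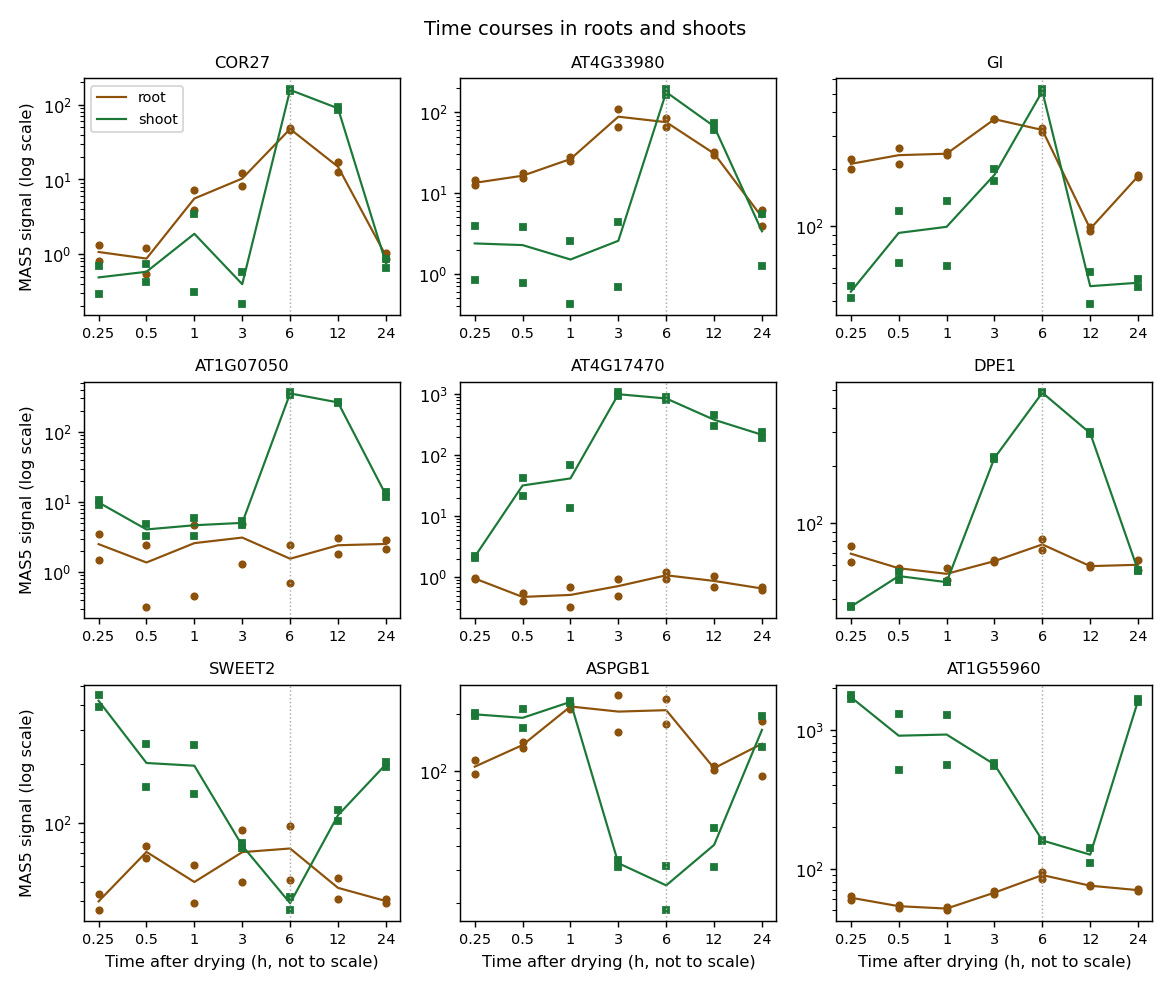
Each panel plots 1 gene's MAS5 signal on a log scale at the 7 times from 0.25 h to 24 h, with points for the arrays and lines through the means of 2, roots in brown and shoots in green; the dotted line marks 6 h. COR27 and AT4G33980 are higher in roots at 3 h and higher in shoots at 6 h, and AT1G07050 is high in shoots only at 6 h and 12 h.

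AT1G07050 had the same late onset in shoots, at 5.44 and 4.66 at 3 h, 339 and 366 at 6 h, 267 and 258 at 12 h and 13.7 and 11.6 at 24 h, while no root array of the whole course exceeded 4.93. AT4G17470 was earlier and stayed up, with 927 and 1082 in shoots at 3 h and 242 and 192 at 24 h.

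Single genes of starch and sugar metabolism had organ differences of either sign. DPE1, the plastid disproportionating enzyme that handles maltotriose during starch breakdown, had 82.6 and 71.8 in roots at 6 h and 75.8 and 62.2 in roots at 0.25 h, against 480 and 485 in shoots at 6 h and 36.3 and 36.5 in shoots at 0.25 h. Shoots rose 12.6-fold, the root change did not pass (adjusted p = 0.426), and the difference of −3.50 ± 0.16 had an adjusted p of 1.73e-10. SBE2.2, a starch branching enzyme, reached its difference from the side of roots. It had 65.7 and 54.7 in roots at 6 h and 146 and 127 in roots at 0.25 h, against 565 and 608 in shoots at 6 h and 562 and 447 in shoots at 0.25 h (−1.38 ± 0.21, adjusted p = 1.72e-04). Of 5 starch genes measured these 2 passed, both negative, where 8.44% of all genes were negative. ATSPS4F, a sucrose phosphate synthase, had 19.998 and 39.8 in roots at 6 h and 12.6 and 11.2 in roots at 0.25 h, against 179 and 157 in shoots at 6 h and 808 and 661 in shoots at 0.25 h (3.24 ± 0.37, adjusted p = 7.64e-06). It fell in shoots and rose in roots, although the rise in roots (1.13, adjusted p = 0.0078) did not pass without the second root array of 6 h (0.67, adjusted p = 0.184) or without the second of 0.25 h (1.05, adjusted p = 0.0578).

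SWEET2, a sugar transporter of the vacuole membrane, had the largest positive difference of 13 SWEET genes measured. It had 96.7 and 51.1 in roots at 6 h and 35.8 and 43.4 in roots at 0.25 h, against 41.8 and 35.8 in shoots at 6 h and 395 and 450 in shoots at 0.25 h. Shoots fell 10.4-fold to the level that roots had at 0.25 h, and the organ difference was 4.19 ± 0.45 (adjusted p = 3.78e-06). SWEET13 and SWEET14, plasma membrane sucrose carriers, had the opposite sign, −1.38 ± 0.35 and −1.94 ± 0.51 (adjusted p = 0.0109 and 0.0126). Without the second root array of 0.25 h both calls were lost, at −0.93 for SWEET13 (adjusted p = 0.0732) and −1.47 for SWEET14 (adjusted p = 0.0781). With the larger pseudocount SWEET14 was at −0.92. The other 10 SWEET genes did not pass. Of the 13 thus 1 was called positive and 2 negative, where 7.08% and 8.44% of all genes were. ASPGB1, an asparaginase that frees ammonium from the transport amino acid asparagine, had 179 and 243 in roots at 6 h and 96.4 and 115 in roots at 0.25 h, against 31.3 and 18.4 in shoots at 6 h and 205 and 196 in shoots at 0.25 h (3.93 ± 0.42, adjusted p = 3.41e-06). The 2 times did not overlap in either organ and went opposite ways, with a fall of 7.78-fold in shoots. The root rise of ASPGB1 (0.97, adjusted p = 0.0407) was near the threshold and did not pass without any one of the 4 root arrays, whereas the organ difference did.

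Of 6 measured genes on a list for dark and sugar starvation, all rose in shoots, where 16.4% of all genes did, and 5 rose in roots, where 4.82% did. The root rises of MCCB (0.65) and D2HGDH (0.45) were each lost without any one of 3 of the 4 root arrays, with adjusted p up to 0.0708 for MCCB and 0.344 for D2HGDH. The members include MCCA, MCCB and IVD, enzymes of leucine breakdown. MCCB had 320 and 292 in roots at 6 h and 197 and 193 in roots at 0.25 h, against 374 and 461 in shoots at 6 h and 134 and 159 in shoots at 0.25 h. It and D2HGDH had a smaller rise in roots than in shoots (−0.85 ± 0.21, adjusted p = 0.00926, and −0.56 ± 0.17, adjusted p = 0.0324). Leaving out single arrays ended both calls. MCCB did not pass without the second shoot array of 6 h (−0.70, adjusted p = 0.0591) or the first of 0.25 h (−0.73, adjusted p = 0.0535). D2HGDH did not pass without the second root array of 0.25 h (−0.38), without several other single arrays, or from the baseline that includes 24 h (−0.27, adjusted p = 0.262). Its call was also lost after quantile normalization (adjusted p = 0.0804), with arrays centred on their medians (0.0596) and with only the 8 arrays of 0.25 h and 6 h (0.117). The other 4 did not pass the organ test, and 8.44% of all genes passed it with a negative difference. The median difference of the list was −0.71, beside −0.01 over all genes.

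Genes that fell in shoots made up most positive differences. AT2G27420, a papain-like cysteine protease, had 4.99 and 6.25 in roots at 6 h and 4.83 and 4.30 in roots at 0.25 h, against 8.45 and 8.55 in shoots at 6 h and 457 and 326 in shoots at 0.25 h. It was the largest positive difference by the naming rule, 5.43 ± 0.46 (adjusted p = 2.83e-07), with a 37.2-fold fall in shoots to near the level of roots. All its root arrays and its shoot arrays of 6 h lay under the 30th percentile of their array (11.3 to 14.8). A root change could thus hardly be measured. AT1G55960, a lipid-binding protein with a START domain, had 84.8 and 94.7 in roots at 6 h and 59.5 and 63.8 in roots at 0.25 h, against 157 and 162 in shoots at 6 h and 1781 and 1678 in shoots at 0.25 h (3.95 ± 0.44, adjusted p = 7.20e-06). Its shoot signal was 1588 and 1673 again at 24 h. AT2G15020, AT3G15310, AT5G66740 and AT3G24460 had the same pattern, with differences of 3.94 ± 0.51, 3.83 ± 0.42, 3.72 ± 0.42 and 3.55 ± 0.62. Their shoot signals at 6 h were at most 14.8, against at least 49.8 at 0.25 h, and no root array exceeded 14.7. With the larger pseudocount the difference of AT5G66740 was 2.08. AT4G11710 had at most 0.516 on any root array, with 1.25 and 0.552 in shoots at 6 h and 68.1 and 73.6 in shoots at 0.25 h, but its call (4.64 ± 1.55, adjusted p = 0.0458) was lost with the replicate block (adjusted p = 0.0542) and when any one of the 8 arrays was left out, was 2.55 with the larger pseudocount, and its probe set may share signal with related genes. LHCB4.3, a minor antenna protein of photosystem II, was the only one of 10 nuclear photosynthesis genes to pass, where 15.5% of all genes did. It had 21.7 and 33.6 in roots at 6 h and 13.3 and 22.3 in roots at 0.25 h, against 234 and 265 in shoots at 6 h and 740 and 628 in shoots at 0.25 h (2.04 ± 0.39, adjusted p = 0.00106).

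Fewer probe sets rose in roots alone, 171 of the 3067. AT5G52390 had 139 and 295 in roots at 6 h and 11.6 and 28.4 in roots at 0.25 h, against 9.40 and 1.55 in shoots at 6 h and 14.4 and 5.20 in shoots at 0.25 h. Roots at 6 h lay above all other arrays (4.12 ± 0.91, adjusted p = 0.00381), with a 10.1-fold rise in roots, which did not pass without the first root array of 0.25 h (2.76, adjusted p = 0.0524). AT1G49570, a class III peroxidase, had 111 and 185 in roots at 6 h and 7.27 and 21.2 in roots at 0.25 h, against 19.8 and 16.5 in shoots at 6 h and 20.2 and 20.6 in shoots at 0.25 h (3.48 ± 0.76, adjusted p = 0.00351). Its root rise of 3.32 on the log2 scale was 2.19 from the baseline that includes 24 h. AT2G15780, of the cupredoxin family, had 90.7 and 335 in roots at 6 h and 8.72 and 11.3 in roots at 0.25 h, against 12.1 and 1.08 in shoots at 6 h and 13.3 and 1.52 in shoots at 0.25 h (4.05 ± 1.33, adjusted p = 0.0427). This call was lost in several settings with all arrays kept, among them the replicate block (adjusted p = 0.0512) and no pseudocount (4.45, adjusted p = 0.115). It was also lost without the second root array of 6 h (3.12, adjusted p = 0.197), the second shoot array of 6 h (2.95, adjusted p = 0.198) or the first shoot array of 0.25 h (2.99, adjusted p = 0.199). UGT87A2, a UDP-glycosyltransferase with a role in flowering time, had 372 and 427 in roots at 6 h and 121 and 205 in roots at 0.25 h, against 65.9 and 54.2 in shoots at 6 h and 99.5 and 86.6 in shoots at 0.25 h (1.95 ± 0.46, adjusted p = 0.00615). Its root rise of 1.33 did not pass without the first root array of 0.25 h (0.96, adjusted p = 0.198) or the second of 6 h (1.23, adjusted p = 0.0999). EXLB1, an expansin-like wall protein, had 365 and 497 in roots at 6 h and 132 and 134 in roots at 0.25 h, against 150 and 120 in shoots at 6 h and 109 and 85.2 in shoots at 0.25 h. Its difference of 1.19 ± 0.32 (adjusted p = 0.0141) did not pass without the second root array of 6 h (0.97, adjusted p = 0.0868).

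AT4G27654 and CML37 had their highest signals in roots at 0.25 h, and of the organs only roots passed the test. All shoot signals of CML37 lay under the 30th percentile of their array (11.3 to 14.8), so its shoot change could hardly be measured. AT4G27654 had 9.76 and 15.8 in roots at 6 h and 260 and 342 in roots at 0.25 h, against 15.7 and 11.9 in shoots at 6 h and 13.8 and 9.53 in shoots at 0.25 h. Roots at 0.25 h were the single high group, the root fall was 20.8-fold, and the organ difference was −4.60 ± 0.58 (adjusted p = 2.54e-05), or −2.13 from the baseline that includes 24 h. CML37, a calmodulin-like calcium sensor, had 10.6 and 24.6 in roots at 6 h and 137 and 152 in roots at 0.25 h, against 4.98 and 1.35 in shoots at 6 h and 0.921 and 0.968 in shoots at 0.25 h (−3.73 ± 1.02, adjusted p = 0.0158). From the baseline that includes 24 h it was −1.63 (adjusted p = 0.236), and without the first root or the first shoot array of 6 h it did not pass either (adjusted p = 0.0659 and 0.0737). The root fall of CML37 was −0.92 from that baseline (adjusted p = 0.391) and did not pass without the first root array of 6 h or either one of 0.25 h. AT1G18740 and AT2G41640, the last a glycosyltransferase, fell in both organs but more in roots. AT1G18740 had 89.0 and 79.4 in roots at 6 h and 515 and 505 in roots at 0.25 h, against 97.1 and 114 in shoots at 6 h and 156 and 151 in shoots at 0.25 h (−2.03 ± 0.22, adjusted p = 5.64e-06). The 24 h arrays matter here too, since with them in the starting point the difference of AT1G18740 was −0.88 and that of AT2G41640, −1.74 ± 0.36, was −0.86 without a call (adjusted p = 0.0659). The shoot falls of both did not pass there either (adjusted p = 0.0647 and 0.346). From 0.25 h alone these falls were −0.54 for AT1G18740 and −0.87 for AT2G41640. Neither passed without the first shoot array of 6 h (−0.43 and −0.60). The fall of AT1G18740 also did not pass without the first shoot array of 0.25 h (−0.52), nor that of AT2G41640 without the second (−0.63). Of 3 early stress transcription factors measured, STZ and WRKY53 fell in both organs, where 4.67% of all genes fell in roots and 14.8% in shoots. In limma none of the 3 passed the organ test, where 15.5% of all genes did, and 1 had an unadjusted p under 0.05. WRKY6 had changes of 0.41 in roots and 0.99 in shoots, neither past the test. STZ, a zinc finger repressor, had 218 and 197 in roots at 6 h and 1463 and 1408 in roots at 0.25 h, against 19.3 and 23.2 in shoots at 6 h and 384 and 433 in shoots at 0.25 h. The falls of 6.87-fold in roots and 17.8-fold in shoots differed by 1.37 ± 0.49, which did not pass (adjusted p = 0.0649), although it did with only the 8 arrays of 0.25 h and 6 h (adjusted p = 0.00112) and when the shoot arrays of 0.5 h and 1 h were dropped (adjusted p = 0.0358). From the baseline that includes 24 h the root fall of STZ did not pass (−0.84, adjusted p = 0.0772).

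Opposite changes in the organs were found beyond ASPGB1 and ATSPS4F. TUB5, a beta-tubulin, had 143 and 92.9 in roots at 6 h and 245 and 175 in roots at 0.25 h, against 533 and 636 in shoots at 6 h and 113 and 161 in shoots at 0.25 h (−2.93 ± 0.32, adjusted p = 5.54e-06). Both pairs of times were apart, and shoots, below roots at 0.25 h, were above them at 6 h. The root fall of TUB5 (−0.84, adjusted p = 0.0239) did not pass without the second root array of 6 h (−0.53) or the first of 0.25 h (−0.60). UGT76C2, which glucosylates cytokinins, had 123 and 130 in roots at 6 h and 48.3 and 69.6 in roots at 0.25 h, against 36.5 and 44.1 in shoots at 6 h and 151 and 101 in shoots at 0.25 h (2.68 ± 0.34, adjusted p = 2.62e-05). Its root rise did not pass without the second root array of 6 h (1.06, adjusted p = 0.0512) or the first of 0.25 h (0.84, adjusted p = 0.115). AT2G29150, a short-chain dehydrogenase, had 16.5 and 21.9 in roots at 6 h and 2.13 and 0.625 in roots at 0.25 h, against 0.605 and 2.81 in shoots at 6 h and 5.56 and 7.25 in shoots at 0.25 h. Its difference of 3.95 ± 0.55 (adjusted p = 6.54e-05) was 1.53 with the larger pseudocount and 6.32 with none, and most of these signals were near the bottom of the scale. Its shoot fall (−1.26, adjusted p = 0.0179) was −0.39 with the larger pseudocount and did not pass without the first shoot array of 6 h (−0.81, adjusted p = 0.210) or the second of 0.25 h (−1.11, adjusted p = 0.105). ARR15, a response regulator that cytokinin induces, was the one cytokinin gene measured, at 7.03 and 11.7 in roots at 6 h and 8.90 and 5.98 in roots at 0.25 h, against 14.5 and 1.76 in shoots at 6 h and 58.2 and 42.1 in shoots at 0.25 h. It fell in shoots only (2.98 ± 0.72, adjusted p = 0.00685). Its size depends on 1 array and on the pseudocount, being 1.90 without the second shoot array of 6 h and 1.74 with the larger pseudocount.

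Among genes that fell in both organs, HYH had a larger fall in shoots. HYH is a bZIP factor of light-grown development related to HY5. It had 41.9 and 36.2 in roots at 6 h and 115 and 75.4 in roots at 0.25 h, against 8.54 and 9.96 in shoots at 6 h and 176 and 130 in shoots at 0.25 h (2.56 ± 0.33, adjusted p = 3.01e-05). The falls were 2.33-fold in roots and 13.7-fold in shoots, so that HYH was lower in shoots than in roots at 6 h and higher at 0.25 h. The root fall of HYH did not pass without the first root array of 0.25 h (−0.92, adjusted p = 0.0611). PORB, the light-dependent protochlorophyllide oxidoreductase of chlorophyll synthesis, rose in both organs instead, with 28.4 and 48.4 in roots at 6 h and 14.4 and 24.1 in roots at 0.25 h, against 3018 and 3248 in shoots at 6 h and 209 and 208 in shoots at 0.25 h (−2.97 ± 0.38, adjusted p = 2.90e-05). Its root rise (0.92, adjusted p = 0.0349) did not pass without the second root array of 6 h (0.56) or the first of 0.25 h (0.59). AT5G62360, of the invertase and pectin methylesterase inhibitor family, had 33.2 and 23.4 in roots at 6 h and 3.46 and 4.81 in roots at 0.25 h, against 750 and 993 in shoots at 6 h and 9.74 and 3.16 in shoots at 0.25 h. It rose by 2.31 in roots on the log2 scale, or 1.24 with the larger pseudocount, a call lost when any one root array was left out, and 112-fold in shoots (−4.50 ± 0.88, adjusted p = 0.00136). In 10 probe sets both organs rose with the larger rise in roots, and the differences of the 3 named, AT1G14120, scpl30 and AT5G01210, were 1.65, 1.55 and 0.93 and did not pass without the second root array of 6 h. All 3 were near the threshold, and none passed with no pseudocount (adjusted p = 0.0652, 0.0590 and 0.0525) or no filter (0.0556, 0.0525 and 0.0585). AT1G14120 did not pass with the replicate block either (adjusted p = 0.0507). From the baseline that includes 24 h, AT1G14120 was at 1.12 (adjusted p = 0.118) and AT5G01210 at 0.46 (adjusted p = 0.281).

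Large gene families held members of either sign. Of 38 UDP-glycosyltransferases measured 3 passed the organ test with a positive and 6 with a negative difference. Of 22 serine carboxypeptidase-like proteins 4 and 4 did, of 14 beta-glucosidases 1 and 2, and of 23 xyloglucan enzymes and expansins 2 and 1. Over all genes 7.08% passed with a positive and 8.44% with a negative difference. The beta-glucosidases BGLU44 and BGLU40 went opposite ways. BGLU44 had 92.9 and 76.5 in roots at 6 h and 51.9 and 69.8 in roots at 0.25 h, against 1909 and 2422 in shoots at 6 h and 182 and 175 in shoots at 0.25 h (−3.10 ± 0.26, adjusted p = 2.88e-07). BGLU40 had 23.3 and 36.2 in roots at 6 h and 18.1 and 29.3 in roots at 0.25 h, against 100.4 and 122 in shoots at 6 h and 429.6 and 386 in shoots at 0.25 h (2.17 ± 0.33, adjusted p = 1.58e-04). Neither passed in roots, and in both the shoot arrays of the 2 times were apart. SCPL49, a carboxypeptidase-like protein, rose 1.63-fold in roots and 7.26-fold in shoots (−2.16 ± 0.19, adjusted p = 6.77e-07), the root rise being lost without the first root array of 0.25 h (0.57, adjusted p = 0.0555). XTH32, a xyloglucan endotransglucosylase, fell 3.81-fold in shoots (1.27 ± 0.30, adjusted p = 0.00543). GID1A, a gibberellin receptor, had 122 and 124 in roots at 6 h and 175 and 168 in roots at 0.25 h, against 170 and 202 in shoots at 6 h and 61.9 and 53.0 in shoots at 0.25 h (−2.13 ± 0.22, adjusted p = 2.17e-06). BCAT4, the aminotransferase that starts methionine chain elongation for glucosinolates, had 888 and 578 in roots at 6 h and 1104 and 880 in roots at 0.25 h, against 2167 and 2214 in shoots at 6 h and 762 and 779 in shoots at 0.25 h (−1.96 ± 0.25, adjusted p = 3.01e-05). None of 12 auxin genes and none of 6 cell cycle and histone genes passed the organ test in limma, where 15.5% of all genes did, and 1 gene of each list had an unadjusted p below 0.05.

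**Figure D5:**
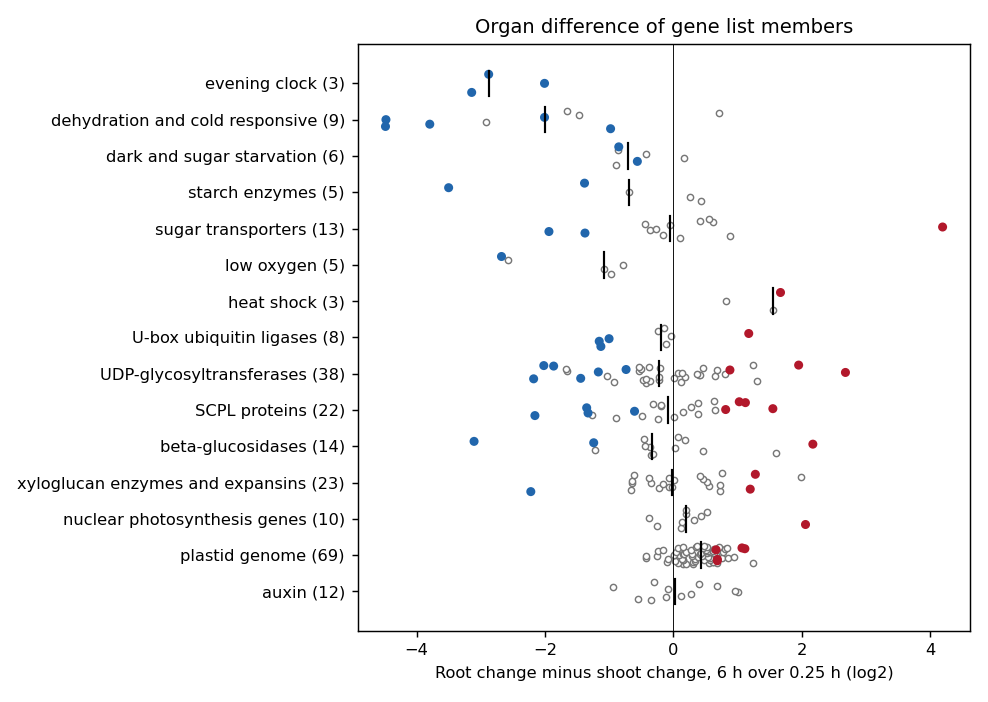
Each point is the organ difference (root change minus shoot change, log2) of 1 gene on the lists named at the left, with the number measured in brackets; filled points passed the test, open points did not, and the bar is the median. The dehydration and cold list has 5 filled points, all negative, and the plastid genome list 5, all positive, beside 8.44% negative and 7.08% positive calls over all genes.

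Of 69 transcripts of the plastid genome measured, 62 had an organ difference above 0, with a median of 0.42, beside −0.01 over all genes. Only 5 of the 69 passed the organ test, all positive, a share near the 7.08% of all genes. In roots 16 rose, where 4.82% of all genes did, and none fell. In shoots 3 rose and 3 fell, where 16.4% of all genes rose and 14.8% fell. The summed signal of the 69 was 22193 to 24214 in roots at 6 h and 16857 to 19613 in roots at 0.25 h, against 135451 to 140188 in shoots at 6 h and 132336 to 139563 in shoots at 0.25 h. The root ranges did not overlap and the shoot ranges did. rpoC2, a subunit of the plastid RNA polymerase, had 216 and 226 in roots at 6 h and 115 and 159 in roots at 0.25 h, against 684 and 764 in shoots at 6 h and 983 and 943 in shoots at 0.25 h (1.11 ± 0.25, adjusted p = 0.00386). Its root rise (0.70, adjusted p = 0.0138) did not pass without the first root array of 0.25 h (0.47) or either one of 6 h (0.73 and 0.67). In such bulk samples fewer cells of a type and less RNA per cell cannot be told apart.

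Markers of roots moved in shoots through a single gene. The summed signal of the 4 root markers measured (PYK10, XTH20, EXPA7 and EXPA18) was 4045 to 4076 in roots at 6 h and 3233 to 3424 in roots at 0.25 h, against 1652 to 2014 in shoots at 6 h and 558 to 615 in shoots at 0.25 h. PYK10, a beta-glucosidase of endoplasmic reticulum bodies, made up most of each sum, with 3846 and 3925 in roots at 6 h and 3080 and 3287 in roots at 0.25 h, against 1977 and 1611 in shoots at 6 h and 582 and 520 in shoots at 0.25 h. Its organ difference of −1.41 ± 0.40 (adjusted p = 0.0195) did not pass without the first shoot array of 6 h (−1.26) or the second of 0.25 h (−1.33). The call was also lost without the second root array of 6 h (−1.42) or the second of 0.25 h (−1.36). The other 3 did not pass in either organ. XTH20 had 98.8 and 98.2 in roots at 6 h and 70.9 and 72.5 in roots at 0.25 h, against 3.31 and 12.8 in shoots at 6 h and 4.86 and 8.89 in shoots at 0.25 h. What part the rise of PYK10 in shoots has in other shoot changes was not tested. None of the 12 genes on the shoot marker list had a tested probe set that lists that gene alone, so none was used.

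Genes of low oxygen and of heat shock set the pair of 6 h root arrays apart. Of 5 low-oxygen genes 4 were over 2-fold higher on the second root array of 6 h than on the first, and of 3 heat shock genes 2 were; over all probe sets 339 of 18190 were. AT5G10040 had 10.6 and 241 in roots at 6 h and 475 and 428 in roots at 0.25 h, against 2.13 and 2.98 in shoots at 6 h and 6.47 and 2.54 in shoots at 0.25 h. Its organ difference did not pass (−2.58 ± 1.24, adjusted p = 0.176), and without the second root array of 6 h it was −4.72 (adjusted p = 0.00147). The small heat shock protein gene AT1G53540 had 57.9 and 328 in roots at 6 h and 12.1 and 8.54 in roots at 0.25 h, against 36.2 and 52.8 in shoots at 6 h and 10.6 and 8.67 in shoots at 0.25 h (1.55 ± 0.85, adjusted p = 0.240, and 2.78 without the first root array of 6 h, adjusted p = 0.0132). What sets these 2 arrays apart was not tested. PDC2, a pyruvate decarboxylase of fermentation, was the one of 5 low-oxygen genes to pass, where 15.5% of all genes did. It had 461 and 674 in roots at 6 h and 277 and 431 in roots at 0.25 h, against 386 and 485 in shoots at 6 h and 33.5 and 47.9 in shoots at 0.25 h. It rose 10.3-fold in shoots (−2.68 ± 0.55, adjusted p = 0.00211), and the difference was −1.71 from the baseline that includes 24 h. Hsp70-2, a chaperone, fell 2.14-fold in shoots (1.66 ± 0.35, adjusted p = 0.00275).

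Fewer probe sets passed the same test at each of the other times. The organ difference from 0.25 h was called for 385 probe sets at 0.5 h (2.12%), 542 at 1 h (2.98%), 1978 at 3 h (10.9%), 3067 at 6 h, 2875 at 12 h (15.8%) and 587 at 24 h (3.23%). These tests share the arrays of 0.25 h. The counts at 0.5 h and 1 h rest on the shoot arrays that correlated best with the other label, which limits them. Comparisons that use none of the 8 arrays were added after the data were seen. Between 3 h and 24 h the organ difference passed for 1034 probe sets (5.68%), and 464 of the 3067 (15.1%) were called there with the sign they had at 6 h and 27 with the other. Over all tested probe sets, 4.68% were called there with the sign of their 6 h estimate. Between 12 h and 24 h it passed for 1411 probe sets (7.76%), with 618 of the 3067 (20.1%) of the same sign and 42 of the other. The share of all tested probe sets called between these times with the sign of their 6 h estimate was 6.26%. The arrays differ in these comparisons, but each probe set's estimate of spread comes from the same fit.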

How the data were processed

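Roots and shoots of Arabidopsis were measured on Affymetrix ATH1 arrays at 7 times after drying, with 2 arrays per organ and time. The deposited values are linear intensity signals per probe set, made by the authors with MAS5 per the submitters' processing notes. The version and the scaling target were not given in the sources used here, and no detection calls were used. From these intensities, log2(signal + 1.93) was computed here, the pseudocount being the 10th percentile of all signals. Of 22810 probe sets, 64 controls were left out and 4556 dropped for low signal. A probe set was kept if some group had both its arrays above the 30th percentile of the array. limma 3.58.1 (R 4.3.3) fitted 14 group means to 28 arrays, which left 14 residual degrees of freedom, and the variance prior followed the mean signal. All tests were two-sided, with Benjamini-Hochberg adjustment over 18190 probe sets. Genes were named for 13513 probe sets that list 1 gene, and the brightest probe set stood for a gene. Another 8730 probe sets list no gene and 503 list several. A list gene counts as measured only if a tested probe set lists that gene alone, so unmeasured genes may still be on the array.

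The gene lists were chosen with earlier results of these data known. Genes named are the 12 largest organ differences each way with the same sign in both replicate numbers, the 3 largest of each pattern, and the 2 largest called members each way of a list (all members of lists of 5 or fewer). Which of these are described was decided after their values were seen. The script was tested on simulated data. Replicate numbers did not pair the arrays, with correlations of deviations from −0.09 to 0.08. Motifs and sequences were not analysed here.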

Additional observations from a re-analysis of the deposited data

Results flagged for a closer look

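The tested difference between the 2 organs is itself what brings these results here: the interaction of organ and time passed for 3067 probe sets, and the 12 named genes with the largest difference in each direction follow. Roots rose less than shoots, or fell more, in AT4G17470 (−7.65), AT1G07050 (−5.27), AT3G62550 (−5.19), AT4G34950 (−4.99), AT1G20030 (−4.83), AT2G47890 (−4.74), AT4G27654 (−4.60), AT4G33985 (−4.54), AT2G15880 (−4.53), AT5G62360 (−4.50), AT4G30650 (−4.48) and COR15B (−4.48). Roots rose more than shoots, or fell less, in AT2G27420 (5.43), AT4G11710 (4.64), SWEET2 (4.19), AT5G52390 (4.12), AT2G15780 (4.05), AT1G55960 (3.95), AT2G29150 (3.95), AT2G15020 (3.94), ASPGB1 (3.93), AT3G15310 (3.83), AT5G66740 (3.72) and AT3G24460 (3.55). AT4G11710 and AT2G15780 lost their calls with the replicate block and when single arrays were left out.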

How the results depend on the processing

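The organ difference was recomputed under 20 settings. The count of 3067 lay between 2846 (quantile normalization) and 3785 (leaving the 4 earlier shoot arrays, 0.5 h and 1 h, out of the fit) over the settings that kept all 8 arrays, and between 2004 and 2846 with 1 of the 8 arrays left out, the lowest without Roots-6h replicate 2. For roots alone, 1880 became 1694 to 2626, and 802 to 1848 with 1 array left out, with 802 without Roots-0.25h replicate 1 and 911 without Roots-6h replicate 2. For shoots alone, 6080 became 5736 to 6779, and 4403 to 6037 with 1 array left out. Each of the left-out fits has 1 array fewer, and the counts differed with the array that was left out. The cause of the lower counts was not tested. With the replicate number as a block, 2971 probe sets passed the organ test, 1822 the root test and 6023 the shoot test. The numbers show no pairing of the arrays, and the block ended the organ call of 4 named genes. The share of negative organ calls was 53.0%, against 43.4% with arrays centred on their medians and 49.9% after quantile normalization, and shoot calls, with 3214 up and 2866 down, had 2758 up and 3296 down when centred. Of 102 named genes past the organ test, 60 passed in every setting that gave a value, 33 did not without Roots-6h replicate 2, and 20 did not from the mean of 0.25 h and 24 h. None changed sign. Of 240 pattern counts, 187 stayed within 1.5 times. Dim signals limit the size of a change, since the pseudocount sets it.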
